A study of Arabidopsis thaliana with 6 samples.

Results

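The 200 nuclear genes with the highest array signals in wild-type Arabidopsis thaliana rosettes were followed into rosettes of the genotype 35S:PCO1. They were taken from 13265 nuclear genes that have a probe set of their own in the platform annotation. The genes were chosen by measured values: they were ranked by the mean log2 signal of the 3 wild-type arrays, the brightest probe set stood for a gene that had more than 1, and the first 200 were kept. The signal of a probe set depends on how well its probes bind as well as on how much transcript is present. The ranking is therefore one of signals, and neighbouring ranks say nothing about the order of the transcripts. The wild-type levels chose the genes and are given as a description. The 35S:PCO1 arrays took no part in the ranking, but the difference between the genotypes reuses the wild-type arrays.

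Overexpressor plants carried PCO1 under 35S, a plant virus promoter that drives a transgene in nearly all tissues, and the other plants were wild type. Plant cysteine oxidase 1 is an oxygen-using enzyme of low-oxygen sensing. It oxidises a cysteine at the start of certain ethylene response factors, and these switches of hypoxia genes are then broken down. Each genotype had 3 samples, each on 1 Affymetrix Arabidopsis array. All plants were kept in normoxia and whole rosettes were taken 2 h into the day from short-day plants (8 h of light, 16 h of darkness, 22 °C by day and 18 °C by night). For all samples the labels also record stratification for 2 days at 4 °C. The labels give an age of 4 weeks in one field and 5 weeks in another. Sample titles of the overexpressor read 35S:CDO1, while genotype and description read PCO1. The labels state neither the number of transgenic lines nor whether replicates were separate plants, pools or repeats of one extract. All p-values here thus refer to the spread between the 6 samples, which may be technical.

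A mature leaf spends most of its messenger RNA on a few tasks. The chloroplast captures light in photosystems embedded in thylakoid membranes, turns it into ATP and NADPH, and fixes carbon in the Calvin cycle. Photorespiration recovers the carbon lost when Rubisco takes up oxygen in place of carbon dioxide. Most proteins of these pathways are encoded in the nucleus, made on cytosolic ribosomes and imported, while the plastid keeps a ribosome of its own whose proteins are largely nuclear encoded as well.

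The leaf markers that could be measured stood near the top. RCA, which encodes Rubisco activase, ranked 2 and LHCB4.1, an antenna protein of photosystem II, ranked 3. The root markers PYK10 and EXPA7 ranked 2035 and 6289, and the seed, flower, pollen and senescence markers searched for were not paired with a probe set of their own. The set is less than the full list of bright nuclear transcripts. In wild type, 607 probe sets were brighter than the last gene kept, of which 383 had no gene in the annotation and 25 belonged to plastid genome genes. The wild-type means of the 200 genes ran between 10.62 and 13.53 and their 35S:PCO1 means between 9.85 and 13.66 on the log2 scale, where bacterial dap and lys control probe sets, which show the floor, lay between 3.07 and 3.82. Array medians over all probe sets were 6.11 to 6.15.

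By role, cytosolic ribosomal proteins were the most numerous group, with 38 of the 200 genes. Photosynthesis in the wide sense followed with 35 genes, or 17.5%: 12 of thylakoid structure and electron transport, 8 of the photosystems and their antennae, 7 of carbon fixation, 5 of chlorophyll synthesis and 3 of photorespiration. A further 9 genes encode plastid ribosomal proteins and 8 encode other plastid proteins. Smaller groups were redox enzymes (8 genes), carbon, nitrogen and cofactor metabolism (8), mitochondrial respiration (7), defence proteins (7), cold and drought proteins (5), lipases and lipid transfer-type proteins (4), proteases (4) and 1 translation factor. A further 25 genes had a known or family-level role outside these groups, and 41 were given no role. The sizes of the groups also depend on which loci had a probe set of their own. Of loci listed from general knowledge, 132 of 229 cytosolic ribosomal ones did. For photosystems and antennae it was 8 of 44, for electron transport and ATP synthase 2 of 11 and for carbon fixation 4 of 23. The photosynthesis lists do not match the role groups above. They hold 7 of the 8 photosystem and antenna genes, 2 of the 12 thylakoid genes and 4 of the 7 carbon fixation genes. The order of the groups is thus no order of roles among all bright transcripts.

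Photosynthesis held 11 of the first 20 ranks. The highest signal belonged to ECS1, a cell wall protein, at 13.68, 13.59 and 13.71 on the 35S:PCO1 arrays and 13.59, 13.58 and 13.42 on the wild-type arrays. The groups overlapped. Behind RCA and LHCB4.1 stood PSAE-1, a subunit on the stromal side of photosystem I, PRXR1, a class III peroxidase, AT2G26500, a small subunit of the cytochrome b6f complex, CCL, a circadian-regulated transcript, and PRK, the phosphoribulokinase of the Calvin cycle. PSBY of photosystem II, AT4G01150, which bends the thylakoid at grana margins, ATPC1 of the chloroplast ATP synthase, PSAN of photosystem I, HPR, the peroxisomal hydroxypyruvate reductase, and the photosystem II assembly protein PSB27 were among the same 20. So were AT2G45180 and AT2G10940, both lipid transfer-type proteins, and AT2G25510, AT3G22240, AT1G09310 and AT5G38980, which were given no role. Against 51.6% of all probe sets with a higher mean in 35S:PCO1, these 20 genes had 18 higher and 2 lower. The largest difference among them in size was 0.144 (AT1G09310) and none passed the test, with a lowest adjusted p of 0.269 (limma, Benjamini-Hochberg over all 22746 probe sets). No ribosomal protein gene stood among the first 24 ranks, and the first was AT5G20290 at rank 25.

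Across the set, few genes passed the test for a difference between the genotypes. In 35S:PCO1 rosettes, 2 of the 200 genes passed the limma test at an adjusted p under 0.05, or 1.00% of them, against 0.840% of all probe sets tested. One was higher, where 0.207% of all probe sets were, and 1 was lower, where 0.633% were. The share called in the set was near that background. Another 200 genes, those ranked next below the set, also gave 1 higher and 1 lower call. At an unadjusted p under 0.05, 17 of the 200 genes (8.5%) were higher in 35S:PCO1, against 5.89% of all probe sets, and 21 (10.5%) were lower, against 7.49%. None differed 2-fold. The differences, 35S:PCO1 minus wild type, spanned -0.93 to 0.44, and 191 of the 200 (95.5%) were under 0.2 in size, against 92.8% of all probe sets and the same count, 191, among the next 200 genes.

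The median size of a difference was nevertheless larger in the set than elsewhere, at 0.0846 against 0.0610 over all probe sets and 0.0607 in the next 200 genes, on the log2 scale. It was uneven by role, at 0.1275 for the 38 cytosolic ribosomal protein genes and 0.0539 for the 35 photosynthesis genes. The spread between replicates was smaller in the set, with a median SD of 0.0534 in 35S:PCO1 and 0.0645 in wild type. All probe sets had 0.0661 and 0.0752. The next 200 genes had still smaller median SDs by genotype, 0.0504 in 35S:PCO1 and 0.0606 in wild type. Pooled over the genotypes for each gene, their median SD was 0.0677, against 0.0660 in the set. The 35S:PCO1 arrays all lay on one side of the wild-type arrays for 62 of the 200 genes (31.0%), against 18.4% of all probe sets and 22.0% of the next 200 genes. Of the 62, 39 were higher (19.5% of the set, background 9.07%) and 23 lower (11.5%, background 9.31%). Of the 23 lower genes, 16 encode cytosolic ribosomal proteins. The median difference was 0.034 over the 200 genes and 0.004 over all probe sets. These counts describe the set and carry no test of their own.

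**Figure D1:**
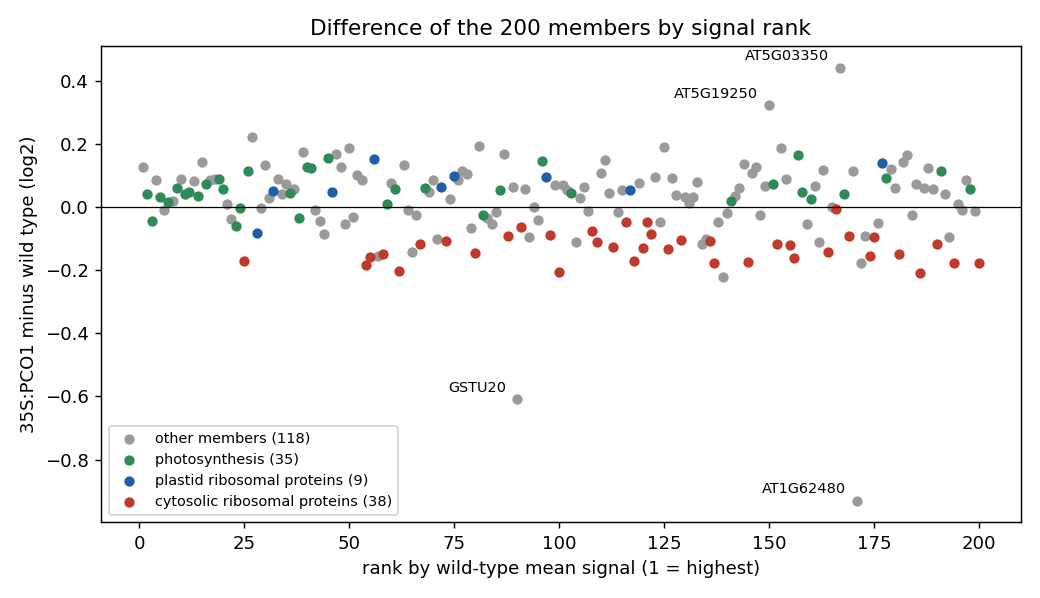
Difference of each of the 200 genes, 35S:PCO1 minus wild type in log2 units, against its rank by wild-type mean signal, where 1 is the highest. Each point is a gene, coloured by role, and 191 of the 200 points lie within 0.2 of 0, with all 38 cytosolic ribosomal protein genes (red) below 0 and GSTU20 and AT1G62480 lowest.

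The 2 called genes lay far from the rest in the plot of difference against rank, as did 2 genes that did not pass. GSTU20, a tau class glutathione S-transferase, of a family that joins glutathione to reactive compounds, ranked 90. Its log2 signal was 10.69, 10.75 and 10.43 on the 35S:PCO1 arrays and 11.03, 11.22 and 11.44 on the wild-type arrays. Every 35S:PCO1 array was lower than every wild-type array. GSTU20 fell by 0.61 (SE 0.112, adjusted p = 0.0457, limma), and its mean was 1.53-fold lower in 35S:PCO1. Its adjusted p ranged between 0.00188 and 0.358 over the alternative settings.

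AT5G19250, which encodes a glycoprotein anchored to the membrane by GPI, ranked 150. It had 11.19, 11.11 and 11.21 in 35S:PCO1 and 10.91, 10.81 and 10.81 in wild type, so the groups were apart and replicates of a genotype lay close together. AT5G19250 rose by 0.32 (SE 0.0573, adjusted p = 0.0406, limma), which is 1.25-fold. Its adjusted p ranged between 0.00185 and 0.268 over the alternatives. In fits that left out a single array, GSTU20 and AT5G19250 both stayed past the threshold without wild-type replicate 1, while no gene of the set passed without any of the other 5 arrays.

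The largest difference in the set did not pass the test. AT1G62480, related to a vacuolar calcium-binding protein and ranked 171, had 9.84, 9.99 and 9.72 in 35S:PCO1 and 10.23, 10.89 and 11.23 in wild type. The genotypes did not overlap, but wild-type replicate 1 lay much nearer to the 35S:PCO1 arrays than the other wild-type replicates did. The difference was -0.93 (SE 0.206, adjusted p = 0.0836, limma), a mean 1.91-fold lower in 35S:PCO1. Without wild-type replicate 1 it passed, at an adjusted p of 0.00071 (limma), and over all alternatives the adjusted p ran between 0.00071 and 0.433. Replicate 1 lay below 10.62, the lowest wild-type mean of the set, so replicates 2 and 3 brought the gene into the set. The fit without replicate 1 thus uses the wild-type arrays that chose the gene and adds no support for the difference. AT1G62480 also had the largest wild-type spread of the set, with an SD of 0.51, against 0.14 in 35S:PCO1.

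The largest difference upward among genes that did not pass was that of AT5G03350, a legume lectin family protein, with 11.43, 10.91 and 11.35 in 35S:PCO1 and 11.05, 10.82 and 10.50 in wild type. A single 35S:PCO1 array lay within the wild-type range, the difference was 0.44 (SE 0.156) and the adjusted p was 0.266. The other large positive differences belonged to AT2G41090, a calmodulin-like protein (0.22), AT1G29670, a GDSL lipase family protein (0.20), AT4G10300, a cupin (0.19), and AT5G44020, an acid phosphatase family protein (0.19). Of these, AT1G29670 and AT4G10300 had groups apart. Other large negative differences belonged to AT1G67865, which was given no role (-0.22), and to the ribosomal protein genes AT4G39200, AT3G24830 and AT3G09200 (-0.21, -0.21 and -0.20). None of these passed.

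**Figure D2:**
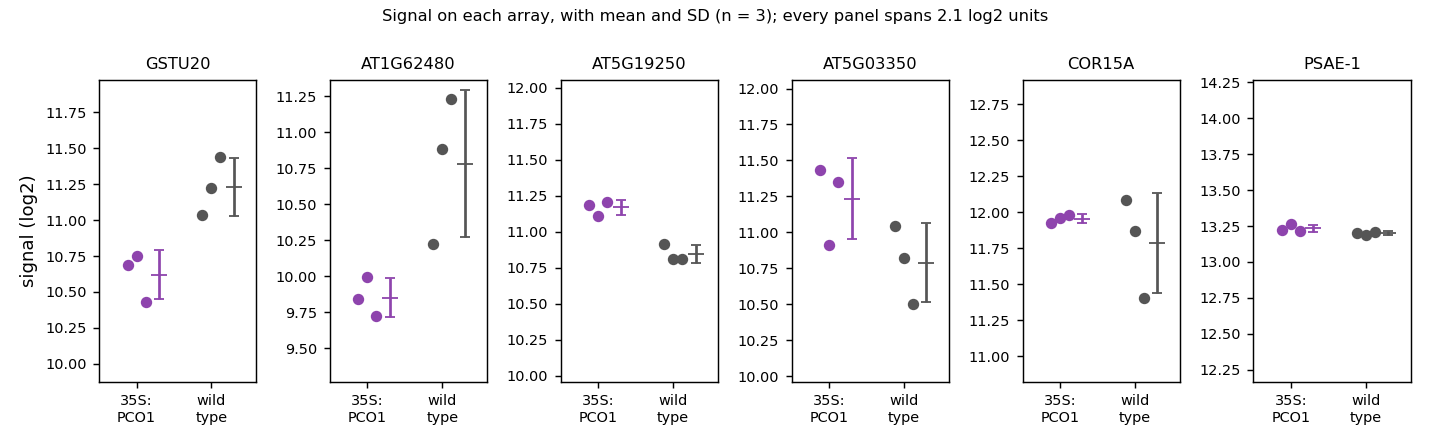
Log2 signal of 6 genes on each array, 35S:PCO1 left and wild type right in each panel, with the mean and SD (n = 3 each) beside the points. All panels span the same height in log2 units, so that the difference of GSTU20 (-0.61) can be set against the wild-type spread of AT1G62480 and COR15A and the narrow spread of PSAE-1.

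All 38 cytosolic ribosomal protein genes in the set had lower means in 35S:PCO1, and none passed the test. These proteins build the ribosome that translates nuclear messages, and each is usually encoded by several similar genes, so a probe set may also bind transcripts of a close copy. The median difference was -0.128, or 1.09-fold lower in 35S:PCO1, with a range of -0.208 to -0.006. Genes of the small subunit (12, median -0.122) and of the large subunit (26, median -0.130) had much the same values. The lowest adjusted p among the 38 was 0.176 (limma), and 16 had an unadjusted p under 0.05, all lower, against 7.49% of all probe sets. The groups were apart in 16 of the 38, all lower, against 9.31% of all probe sets. In a bulk sample of whole rosettes, less RNA per cell and fewer cells of a type cannot be told apart.

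AT4G39200, of the small subunit, had 10.45, 10.55 and 10.54 in 35S:PCO1 and 10.74, 10.78 and 10.64 in wild type (difference -0.21, SE 0.0597, adjusted p = 0.176, limma). AT3G09200, of the large subunit, had 11.27, 11.45 and 11.38 in 35S:PCO1 and 11.55, 11.54 and 11.62 in wild type (difference -0.20, adjusted p = 0.208, limma). In both the genotypes were apart. AT5G20290, of the small subunit and the brightest ribosomal probe set, had 12.14, 12.20 and 12.05 in 35S:PCO1 and 12.18, 12.30 and 12.42 in wild type. Here 1 of the 35S:PCO1 arrays lay just above the lowest wild-type array (difference -0.17, adjusted p = 0.337, limma). AT1G52300, AT3G60245 and AT4G27090 of the large subunit, with -0.18, -0.16 and -0.15, had groups apart.

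The ribosomal genes varied together on single arrays as well as between genotypes. With each gene centred on its own mean over the 6 arrays, the median of the 38 genes was -0.136, 0.014 and -0.078 on the 35S:PCO1 arrays and 0.005, 0.070 and 0.122 on the wild-type arrays. The genotypes overlapped in this summary, since 35S:PCO1 replicate 2 stood above wild-type replicate 1. On 35S:PCO1 replicates 1 and 3 all 38 genes lay below their wild-type mean, and on replicate 2 it was 30. The median difference stayed negative when any single array was left out, at -0.086 to -0.176, with the smallest size without 35S:PCO1 replicate 1 and the largest without replicate 2.

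Because the genes were chosen for high wild-type signals, the choice itself can pull their differences down, so the ribosomal genes outside the set were read as well. Of 229 cytosolic ribosomal protein loci written from general knowledge, 132 had a probe set of their own. Outside the set, 73 of 94 had lower means in 35S:PCO1, with a median difference of -0.066, none called. The wild-type means of the 94 ran between 3.12 and 10.56, so they include genes with signals as low as the dap and lys controls. How far such dim genes made the median smaller than in the set was not tested. An unadjusted p under 0.05 was reached by 8 of the 94, all lower, or 8.51%, near the 7.49% of all probe sets. The groups were apart in 8 as well, all lower, where 9.31% of all probe sets were. Over all probe sets, 11000 of 22746 were lower. The centred medians of the 94 genes were -0.129, 0.054 and -0.026 on the 35S:PCO1 arrays and 0.007, 0.029 and 0.057 on the wild-type arrays, so 35S:PCO1 replicates 1 and 3 lay below all wild-type arrays and replicate 2 lay within their range. Ranked by the 35S:PCO1 arrays in place of wild type, 32 of the 38 genes were still among the first 200 and no further ribosomal gene entered.

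The 2 ribosomal RNA controls on the array differed from each other. The 25S rRNA control had 7.39, 7.54 and 7.30 in 35S:PCO1 and 8.88, 8.66 and 8.48 in wild type, and fell by 1.26 on the log2 scale (SE 0.104, adjusted p = 1.81e-04, limma, over the 64 controls). The groups were far apart. The 5S rRNA control had 5.84, 5.51 and 5.91 in 35S:PCO1 and 5.85, 5.76 and 5.54 in wild type, which overlapped (difference 0.04, adjusted p = 0.993, limma, over the 64 controls). Both lie outside the 22746 probe sets tested. Whether the 25S gap belongs to the genotype or to how the samples were prepared cannot be told apart here. Its bearing on the small differences of the set, those of the ribosomal protein genes included, was not tested.

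**Figure D3:**
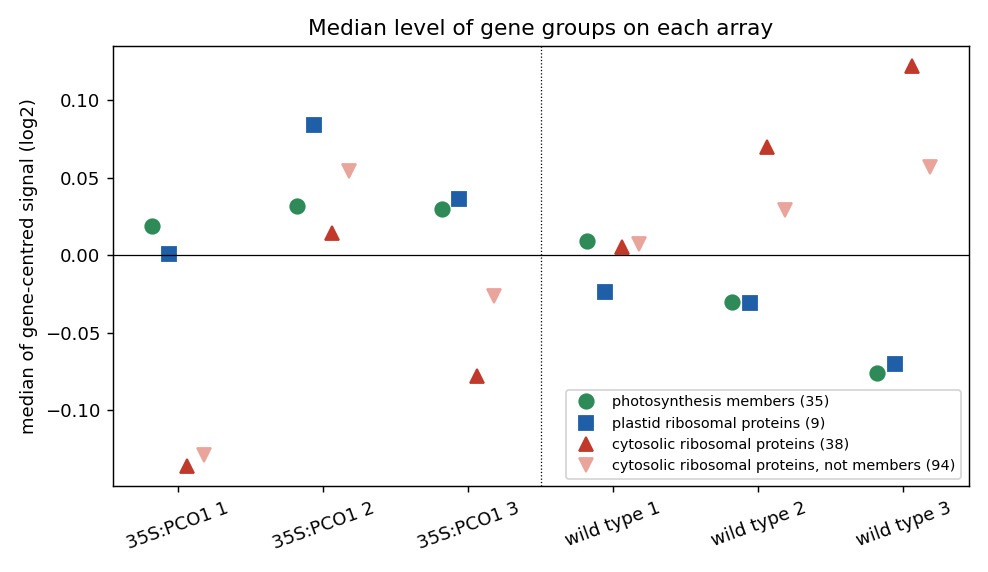
Median log2 signal of 4 gene groups on each of the 6 arrays, 35S:PCO1 left and wild type right, after each gene was centred on its mean over all arrays. Cytosolic ribosomal proteins in the set (38) and outside it (94) are lowest on 35S:PCO1 replicate 1, while photosynthesis genes (35) and plastid ribosomal proteins (9) are lowest on wild-type replicate 3.

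Photosynthesis genes were nearly level between the genotypes, with small differences upward. Of the 35, 30 had a higher mean in 35S:PCO1, none passed the test, and the median difference was 0.049, with a range of -0.059 to 0.165. This direction was not particular to photosynthesis. Of the 162 genes of the set that are not cytosolic ribosomal, 116 lay above 0, with a median of 0.054. Over all probe sets, 51.6% lay above 0. The groups were apart in 11, all higher, against 9.07% of all probe sets higher. The centred medians were 0.019, 0.032 and 0.030 on the 35S:PCO1 arrays and 0.009, -0.030 and -0.076 on the wild-type arrays, so the genotypes did not overlap, with wild-type replicate 3 lowest. Left out, that array gave a median difference of 0.034 and 24 genes above 0, and without wild-type replicate 1 the median was 0.080. Lists written from general knowledge held 44 photosystem and antenna loci, 11 of electron transport and ATP synthase, and 23 of carbon fixation. Probe sets of their own were found for 8, 2 and 4 of these, all but the antenna gene LHCB4.3 (0.07) in the set, and none passed.

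The 8 photosystem and antenna genes had the smallest median difference of these groups, at 0.022, with 5 above 0 and 3 below. LHCB4.1 had 13.42, 13.48 and 13.40 in 35S:PCO1 and 13.50, 13.43 and 13.51 in wild type. LHCB4.2, its close relative, differed by -0.06. For PSAE-1 the values were 13.22, 13.26 and 13.22 in 35S:PCO1 and 13.20, 13.19 and 13.21 in wild type. PSAE-1 and PSBY had groups that did not overlap, yet the differences were 0.03 and 0.04 with adjusted p-values of 0.842 and 0.788 (limma). PSAE-1 and PSBY were also among the 4 genes with the smallest spread within genotypes, together with AT3G11630, a chloroplast 2-Cys peroxiredoxin (pooled SD 0.011), and AT3G13410, which was given no role.

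All 12 genes of thylakoid structure and electron transport had higher means in 35S:PCO1, with a median of 0.057 and a top value of 0.165. PIFI, which the chloroplast NAD(P)H dehydrogenase needs for its activity, had 12.09, 12.05 and 11.99 in 35S:PCO1 and 11.99, 11.92 and 11.86 in wild type (difference 0.12, adjusted p = 0.399, limma). Its groups were apart by a narrow gap. AT4G01150 differed by 0.05, ATPC1 by 0.04 and AT2G26500 by 0.02.

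All 7 carbon fixation genes likewise lay above 0, with a median of 0.043. RCA had 13.53, 13.55 and 13.51 in 35S:PCO1 and 13.53, 13.50 and 13.44 in wild type, which overlapped. SBPASE, the sedoheptulose-bisphosphatase that regenerates the Rubisco substrate, had 12.31, 12.38 and 12.36 in 35S:PCO1 and 12.31, 12.23 and 12.16 in wild type. Its groups touched without overlap (difference 0.12, adjusted p = 0.437, limma). AT5G51110, a Rubisco assembly factor, differed by 0.14 with groups apart (adjusted p = 0.336, limma).

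The 3 photorespiration genes were HPR (0.09) and the T and H proteins of glycine decarboxylase, AT1G11860 (0.04) and AT1G32470 (0.13), and none passed. Of the 18 photorespiration loci listed, 5 had a probe set. The 2 outside the set were AT1G80380 at 0.05 and AT2G35120 at -0.60 (adjusted p of AT2G35120 = 0.0577, limma). AT2G35120 also encodes an H protein of glycine decarboxylase, and its difference had the opposite sign to that of AT1G32470. Chlorophyll synthesis was split, with PORB at 0.06, LIL3:2 at 0.09 and LIL3:1 at 0.06 above 0, and the geranylgeranyl reductase gene AT1G74470 (-0.03) and the methyltransferase gene CHLM (-0.03) below.

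Plastid ribosomal proteins did not share the sign of their cytosolic counterparts. Of the 9 genes, 8 had higher means in 35S:PCO1, with a median of 0.064, none called and 4 with groups apart, all higher, against 9.07% of all probe sets. Higher means were shared by 116 of the 162 genes of the set that are not cytosolic ribosomal. The highest difference was that of AT3G13120, at 11.71, 11.82 and 11.76 in 35S:PCO1 and 11.63, 11.59 and 11.61 in wild type (difference 0.15, SE 0.0537, adjusted p = 0.264, limma). The single one below 0 was AT5G24490 (-0.08), a plastid ribosome-associated protein. AT2G43030 and AT1G29070 differed by 0.05 each. All 8 other plastid proteins lay above 0, with a median of 0.057, among them the RNA-binding protein AT2G37220 (0.10), the plastoglobule fibrillin AT5G19940 (0.09) and the envelope protein LrgB (0.05). Whether plastid and cytosolic ribosomal protein genes differ in their response was not tested.

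**Figure D4:**
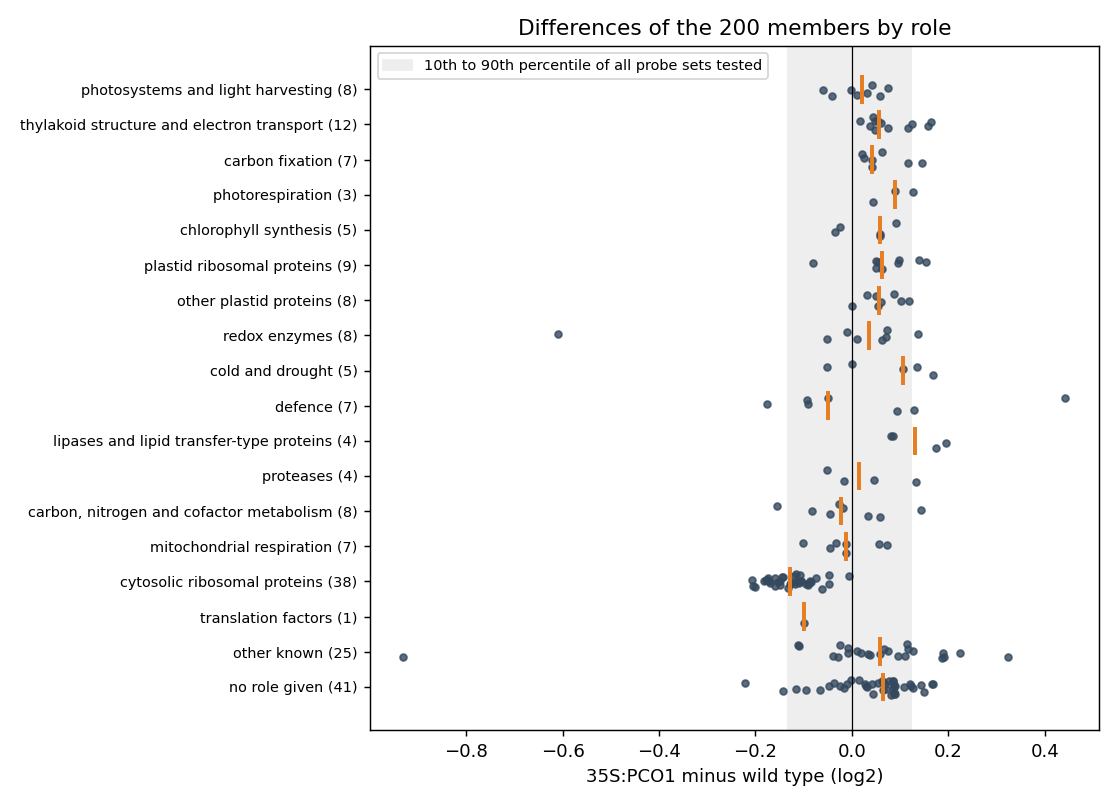
Differences of the 200 genes by role, 35S:PCO1 minus wild type in log2 units, with a point for each gene and an orange bar at the median of each group. The grey band spans the middle of all 22746 probe sets, between -0.132 and 0.122 (their 10th and 90th percentiles), and the median of the cytosolic ribosomal proteins (-0.128) lies at its lower edge.

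In the plot of differences by role, the remaining groups of several genes had medians between -0.049 (defence) and 0.130 (lipases and lipid transfer-type proteins). Redox enzymes had a median of 0.036, with GSTU20 as the lone large value. PRXR1 differed by -0.01, the chloroplast thioredoxin ATHM2 by 0.07 and the glutaredoxin GRXC2 by -0.05. The cold and drought group held the genes that varied most between wild-type samples besides AT1G62480. COR15A, a chloroplast protein induced by cold, had 11.92, 11.96 and 11.98 in 35S:PCO1 and 12.09, 11.87 and 11.41 in wild type, so the 35S:PCO1 arrays lay inside the wild-type range. COR15B, its neighbour on the chromosome, had 11.50, 11.82 and 11.67 in 35S:PCO1 and 11.80, 11.58 and 11.22 in wild type. Wild-type replicate 3 was the lowest of the 6 arrays in both. Neither passed, with differences of 0.17 and 0.13. The dehydrin AT1G54410 differed by -0.05 and AT4G30650, a small membrane protein of the cold and salt response, by 0.11.

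Among the 7 defence proteins, 3 lay above 0 and 4 below. The thionin AT1G66100 differed by 0.09 with groups apart. AT2G43550, a defensin-like protein, had 11.03, 11.19 and 11.14 in 35S:PCO1 and 11.45, 11.25 and 10.94 in wild type, which overlapped. All 4 lipases and lipid transfer-type proteins lay above 0, with a median of 0.130. AT1G29670 had 11.52, 11.60 and 11.54 in 35S:PCO1 and 11.35, 11.36 and 11.36 in wild type (difference 0.20, SE 0.0515, adjusted p = 0.142, limma), and the GDSL lipase gene AT3G16370 also had groups apart (0.17). The 4 proteases split evenly, with the papain-type AT4G16190 at 0.13 and the vacuolar processing enzyme GAMMA-VPE at 0.04 above 0, and the aspartic proteases APA1 (-0.01) and AT1G09750 (-0.05) below.

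Carbon, nitrogen and cofactor metabolism had a median of -0.022. The glycolytic genes GAPC2 and TPI differed by -0.04 and -0.08, the cytosolic isocitrate dehydrogenase cICDH by -0.16 and THIC, which makes a precursor of thiamine, by 0.06. Mitochondrial respiration had a median of -0.012, with the complex I subunit AT1G76200 at -0.10 and groups apart, the complex I subunit AT3G08610 at -0.01, the cytochrome c oxidase subunit AT4G37830 at -0.05 and the carrier AT5G19760 at -0.03. AT5G19510, a beta subunit of elongation factor 1, was the lone translation factor and differed by -0.10. The other 2 measured translation factors on the list, EIF4A-2 and AT5G12110, differed by -0.06 and -0.03. The single metallothionein measured, of 6 listed, was MT1C, outside the set, at -0.35 (adjusted p = 0.247, limma). Of the 41 genes given no role, 30 lay above 0, with a median of 0.066. None of these genes passed the test.

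High signal was kept in 35S:PCO1 for most of the set. Ranked by the 35S:PCO1 mean, 189 of the 200 genes were again among the first 200, and 174 were among the first 200 on each of the 6 arrays. Single 35S:PCO1 arrays kept 184, 193 and 187 genes and single wild-type arrays, which made the ranking, 194, 198 and 192. The median change of rank was 7.5 places. AT1G62480 moved furthest, to rank 429 in 35S:PCO1 against 171 in wild type. GSTU20 stood at rank 203 in 35S:PCO1 against 90 in wild type, and 6 of the 11 genes that left were ribosomal.

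The 11 genes that took their places were AT1G29660, AT3G23700, AT5G48790, NdhL, AT5G53490, AT2G36835, TIL, ACYB-2, AT1G21065, AT1G71695 and AT4G23670, named here as the full list of those that entered. They entered through their 35S:PCO1 signals, so the choice itself favours higher values in 35S:PCO1, all 11 differences are positive, and their direction is no result about the set. In the fit over all probe sets, 1 of them passed. AT1G71695, a class III peroxidase, had 10.68, 10.67 and 10.67 in 35S:PCO1 and 10.41, 10.27 and 10.30 in wild type, a difference of 0.34 (SE 0.0563, adjusted p = 0.0316, limma). AT4G23670, a protein of the major latex protein family, had 10.74, 10.52 and 10.71 in 35S:PCO1 and 10.40, 10.18 and 10.12 in wild type. The groups were apart, but the difference of 0.42 did not pass (adjusted p = 0.0653, limma). Ranking by 35S:PCO1 thus left GSTU20 out and took AT1G71695 in, and the count of called genes was again 2, now both higher. Since the ranking itself favours higher values in 35S:PCO1, the equal count is no sign of stability. NdhL, a subunit of the chloroplast NAD(P)H dehydrogenase, differed by 0.19, and TIL, a lipocalin, by 0.11.

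The edge of the set at rank 200 was not a step in signal. The last genes inside were AT2G23090, AT1G65820, LIL3:1, AT4G16450 and AT2G37190, the last with a wild-type mean of 10.62. The first outside were AT1G29660, AT2G14910, AT3G23700, AT3G08740 and AT5G48790, between 10.61 and 10.59.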

How the data were processed

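The authors deposited log2 signals for each probe set on each array. The submitters' processing notes name RMA without a version. RMA adjusts the background, makes the arrays' distributions alike and summarises the probes of a set. It gives no detection call, and a change in total RNA per cell would not show. No source used here says whether other arrays were summarised together with these. The values were used as deposited. Columns of samples left unused numbered 0. Of 22810 probe sets, 64 controls were set aside. Of the other 22746, 13513 had 1 gene in GEO's platform annotation, 503 several and 8730 none. The RefSeq gene table (assembly TAIR10.1) served to name genes, to leave out organelle genome genes and to give gene order. A further 29 probe sets had a gene that this table did not place, all dimmer than the set, with a highest wild-type mean of 8.75. No build is named for the values, so no coordinates are given.

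Genotypes were compared with limma 3.58.1 in R 4.3.3 (lmFit and eBayes, prior degrees of freedom 5.35, no covariate, two-sided), fitted on all 22746 probe sets and adjusted by Benjamini-Hochberg, with calls at an adjusted p under 0.05. The procedure was tested on simulated arrays with independent noise and shifts larger than most differences of the set. That test cannot show how well small shifts, or shifts shared by many genes, are found. An exact permutation test of 3 arrays against 3 cannot go below p = 0.1, and with 3 arrays a group precision is limited (median SE 0.0604 over the set). The 200 genes, the gene lists and the roles were chosen with earlier results of these data known. The annotation names 50 of the 200 genes by symbol and 150 by locus, with no description, so 159 were given a role by locus from general knowledge and 41 were given none. The list of 229 ribosomal loci was written the same way, with values in view, and is used as a description. Of the 200 probe sets, 1 carries a suffix that marks shared probes. AT4G16980 alone had several probe sets, the second at 4.12 in 35S:PCO1 and 3.97 in wild type.

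The text names the first 20 genes, all called genes, the 6 largest differences each way, the 6 genes with the largest wild-type SD and the 4 with the smallest pooled SD, the 4 brightest of each role group, 5 genes on either side of rank 200, and members of the photosynthesis lists. Genes beyond that rule belong to lists given in full or were picked after their values were seen. Alternatives left out the dimmest 20% of probe sets or each array in turn, rescaled the arrays (median centring, cyclic loess, quantile), weighted them, changed the prior (trended and robust, or none, as in an ordinary t statistic), added the replicate number as a block, or ranked and sized the set differently. The labels number the replicates alike in both genotypes, but same-numbered samples did not deviate together (correlations of -0.061, -0.080 and -0.016), so no pairing was used. Promoter motifs and protein lengths were not analysed here. Figures were drawn with matplotlib 3.10.9.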

Additional observations from a re-analysis of the deposited data

How the results depend on the processing

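The count of 2 called genes was the same with the dimmest 20% of probe sets dropped, after median centring, quantile or cyclic loess normalization and with a trended robust prior. Array weights (4.55 for wild-type replicate 2, the rest 0.434 to 1.42) gave 17 (8 higher, 9 lower), an ordinary t statistic 0 (with 32 at an unadjusted p under 0.05), the first 100 genes 1, the first 400 genes 4, and leaving out 1 array between 0 and 3. Those weights also raised the count over all probe sets to 2216, against 191. With the replicate number as a block, which the data do not bear out as a pairing, 2 genes passed, both lower: GSTU20 and AT1G62480, while AT5G19250 had an adjusted p of 0.0579. The median difference of 0.034 became 0.053 after median centring, 0.017 after a further quantile normalization, 0.010 after cyclic loess, 0.047 when ranked by 35S:PCO1, 0.044 over the first 100 genes and 0.022 to 0.036 without 1 array. The photosynthesis median ran between 0.034 and 0.080 without 1 array and between 0.029 (cyclic loess) and 0.067 (median centring) over the scalings. Over the scalings, the fit without the dimmest 20% and the fits without 1 array, 24 to 31 of the 35 genes lay above 0. Of the 38 cytosolic ribosomal genes, 37 or 38 lay below 0 in the same fits, and the scalings put their median between -0.109 and -0.146. Array weights also change the differences, but these medians and the counts above or below 0 were not read under them. Median centring moved the median of all probe sets by the most, to 0.022. For 82 named genes that did not pass, 13 of 1148 alternative values did. These came under array weights, save that AT1G62480 passed also with the replicate block and without wild-type replicate 1. The cause was not tested. Signal saturation could not be judged from these values.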
